A study of Mus musculus with 3 samples.

Results

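The midbrain and hindbrain patterning factors described here are 8 mouse transcription factor genes, namely Otx1, Gbx2, En1, En2, Pax5, Pax8, Egr2 and Irx3. They were taken as the genes for which any non-control probe of the array is named, which gave 9 of 55681 probes. Pax5 had 2 probes, and each other factor had 1. RNA of whole mouse embryos of stage E8.75 was compared on 3 arrays with 2 colours. Every array held RNA labelled Brpf1-deficient in the Cy5 (red) channel and RNA labelled wild-type in the Cy3 (green) channel, so that the arrays form 3 embryo pairs. The labels do not name the disrupted allele of Brpf1, a chromatin scaffold of histone acetyltransferases, and leave unsaid whether each RNA was of a single embryo or a pool. The dyes were never swapped between genotypes, and their effects cannot be told apart. All ratios are log2 of Cy5 over Cy3, positive where the RNA labelled Brpf1-deficient was brighter.

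At this stage the neural tube is divided along its length by genes that are active in bands. Otx genes mark the forebrain and midbrain and Gbx2 the anterior hindbrain, and where the 2 territories meet the isthmic organizer forms, a signalling centre that secretes Fgf8 and Wnt1. Engrailed genes and the Pax2, Pax5 and Pax8 group are switched on around this border and are needed for the midbrain and cerebellum. Behind it the hindbrain is segmented into rhombomeres, of which Egr2 (also called Krox20) marks an alternating pair. Irx3 belongs to the Iroquois homeobox genes, which are active in the neural plate behind the anterior forebrain. In RNA of whole embryos, fewer cells of a type and less RNA per cell cannot be told apart.

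Brpf1 itself went against the labels. Its median spot intensity was 12356.5, 6418 and 5168 in Cy5 in pairs 1, 2 and 3, against 1772.5, 2125 and 1537 in Cy3. After normalization the RNA labelled Brpf1-deficient was 2.83-fold brighter than that labelled wild-type (95% interval 2.02 to 3.95, n = 3, higher in 3 of 3 pairs, limma adjusted p = 0.0405). Where its probe lies relative to the disrupted part was not analysed here, and if it lies outside that part it checks nothing. Directions below are therefore those of the channels as labelled, and if the dyes were assigned the other way every sign below would be turned. Of the neural plate, forebrain and neural crest markers, 9 of 9, 7 of 7 and 6 of 6 passed the filter on dim probes. So did 7 of 7 yolk sac markers and 4 of 5 of trophoblast and decidua (Tpbpa did not), beside 23555 of all 36983 genes. Markers of extraembryonic tissue were thus detected, and which tissue this RNA came from was not tested.

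To be tested, a probe had to stand well above background on at least 2 arrays in Cy5, or on at least 2 in Cy3. By this filter 7 of the 8 factors were tested, and En1 was not. The probe that passed for Pax5 did so through Cy3 alone. The mean ratio of each factor was tested against 0 with limma, and p-values were adjusted over all 23555 genes tested. None of the 7 factors passed an adjusted p of 0.05, against a background of 1.38% of all genes, with 0 higher (background 1.29%) and 0 lower (background 0.0934%). At an unadjusted p below 0.05 there was 1 of 7, Pax8, against 17.3% of all genes (8.23% higher and 9.12% lower). The mean ratio lay above 0 for 6 of 7 factors and for 45.6% of all genes, and below 0 for 1 factor and 54.4% of all genes. The median of the 7 means was 0.11, and that of all genes was -0.02. With the sign turned, 1 of 7 factors would lie above 0, the median would be -0.11, and Pax8 would be the lowest and not the highest. The ratio had 1 sign in all pairs for 3 of 7 factors, Otx1, Pax5 and Pax8, and for 43.4% of all genes. Pax5 was the 1 factor below 0 and passed the filter only through the channel that its ratio favours. Its sign is therefore not independent of the filter and gives these counts no support. Without background correction the mean of Pax5 was -0.03.

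**Figure D1:**
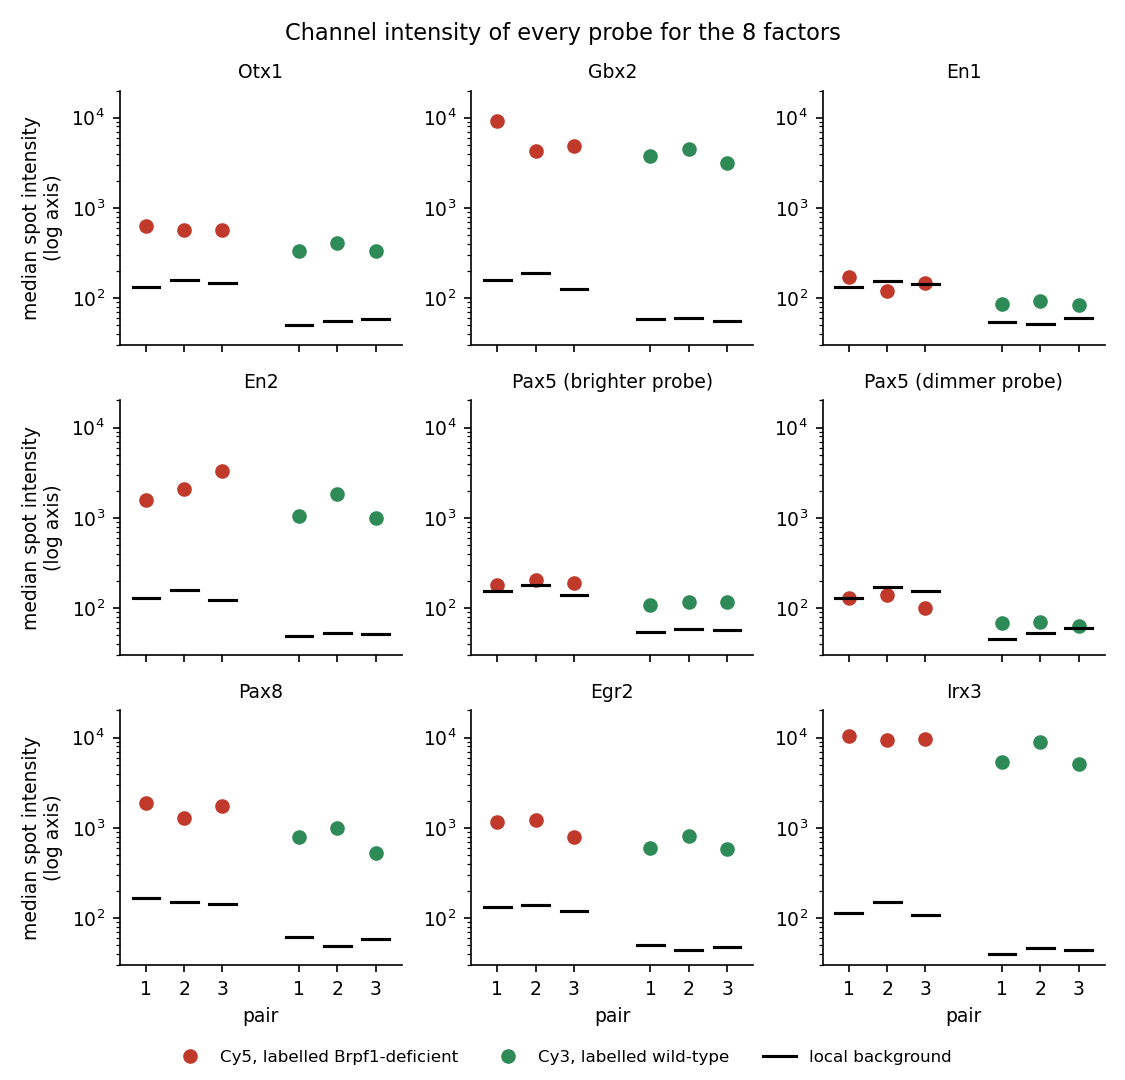
Median spot intensity on a log axis of each of the 9 probes in pairs 1, 2 and 3, with Cy5 (labelled Brpf1-deficient) in red on the left and Cy3 (labelled wild-type) in green on the right. Points are medians over the spots of a probe without outlier spots, and black bars are the local background. The En1 and Pax5 probes lie close to the background, and the other 6 probes lie above it in both channels of every pair.

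Otx1, a relative of Otx2 that acts in the forebrain and midbrain, had a small ratio with little spread. Its spot intensity was 636, 564 and 571 in Cy5, against 331.5, 406 and 336 in Cy3 of pairs 1, 2 and 3. After normalization the ratio was 0.20, 0.05 and 0.08, with a mean of 0.11 ± 0.08 (SE, n = 3; limma adjusted p = 0.505) and a 95% interval from -0.10 to 0.32. The SD over pairs was 0.08, lower than that of most genes (percentile 19.0 of all genes tested). The upper limit of this interval, which is not a bound, was a 1.25-fold excess in Cy5.

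Gbx2, the hindbrain factor that opposes Otx2 at the border, differed between pairs in sign. Its intensity was 9172.5, 4327 and 4857 in Cy5, against 3810, 4529 and 3161 in Cy3. The ratio was 0.45 in pair 1, -0.23 in pair 2 and -0.07 in pair 3, with a mean of 0.05 ± 0.15 (SE, n = 3; limma adjusted p = 0.886). The 95% interval ran from -0.33 to 0.43, and without pair 1 the mean was -0.15. With median centring in place of loess it was -0.06. Set beside it, Otx2, chosen after its values were seen, had 0.11, 0.18 and -0.16 in the same pairs (mean 0.04 ± 0.10, SE, limma adjusted p = 0.852). None of Otx1, Otx2 and Gbx2 passed the threshold, and Otx1 alone of these had 1 sign in all pairs.

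The engrailed genes, homeobox repressors of the midbrain and anterior hindbrain, were each printed as 10 spots of 1 probe per array, so that the error within an array could be read directly. For En1 there was no level to compare. Its 10 spots gave 150 to 213 in Cy5 and 77 to 111 in Cy3 in pair 1, beside a local background of 133 and 55. Over the 3 arrays a single spot in Cy5 and 2 spots in Cy3, all in pair 2, were well above background. En1 was thus not well above background in either channel, and no fold is given.

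En2 was well above background in all 10 spots of both channels on every array, and its ratio set pair 3 apart. In pair 1 the spots ranged from 1530 to 2455.5 in Cy5 and from 937 to 1546 in Cy3. In pair 2 they ranged from 2003 to 3247 in Cy5 and from 1603 to 2785 in Cy3. In pair 3 they ranged from 2997 to 5010 in Cy5 and from 870 to 1476 in Cy3. These ranges hold outlier spots, and without them the raw intensities of the 2 channels overlapped in pair 2 and not in pairs 1 and 3. After normalization and without outlier spots, the mean over spots was -0.07 ± 0.07 in pair 1 (SD, 9 spots), 0.01 ± 0.08 in pair 2 (9 spots) and 1.07 ± 0.03 in pair 3 (8 spots). The spots of pair 3 lay between 1.03 and 1.10, and the highest spot of the other pairs was at 0.14. Spots of 1 array are not replicates of a genotype, and over the 3 pairs the mean of En2 was 0.34 ± 0.24 (SE, n = 3; limma adjusted p = 0.502), with a 95% interval from -0.29 to 0.96.

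**Figure D2:**
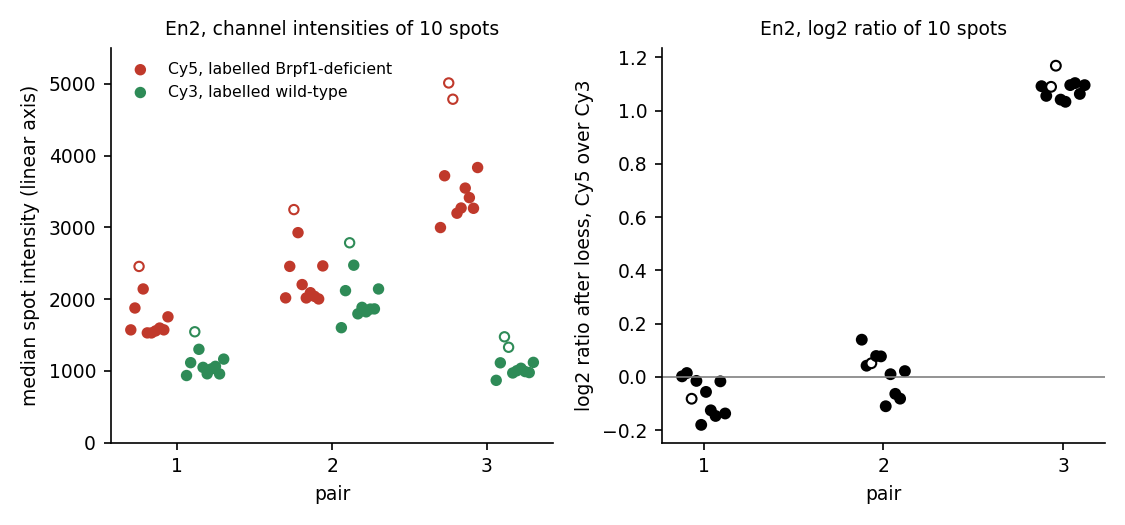
En2 in the 10 spots of each array. The left panel gives median spot intensity on a linear axis, with Cy5 (labelled Brpf1-deficient, red) left of Cy3 (labelled wild-type, green), and the right panel gives the log2 ratio of Cy5 over Cy3 after loess. Open points are outlier spots, which were left out of the means. The ratios lie near 0 in pairs 1 and 2 and between 1.03 and 1.10 in pair 3 for the spots used.

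Across 311 probes with 10 spots, the median SD between spots of 1 array was 0.05 on the log2 scale in each pair. The SD of En2 between pairs was 0.64, which stood at percentile 97.3 of all genes tested. The pair 3 ratio of En2 stood at percentile 99.4 of all genes in that pair, and its ratios in pairs 1 and 2 at percentiles 38.9 and 56.4. In that pair 187 genes had a ratio of at least 1, and En2 was the 1 gene among them whose ratio lay within 0.1 of 0 in both other pairs. These limits were chosen after the values of En2 were seen. Without pair 3 the mean of En2 was -0.03.

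The channels can also be read one by one, after loess and a further normalization that gives the arrays 1 distribution of mean brightness (Aquantile). On this scale En2 in Cy5 was at log2 10.27, 11.03 and 11.51 in pairs 1, 2 and 3, against 10.34, 11.01 and 10.44 in Cy3. Both channels were higher in pair 2 than in pair 1, and they stood together in each of these pairs. In pair 3 Cy3 stayed near its value in pair 1, and Cy5 was the highest of the 6 values.

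Pax5 and Pax8 belong, with Pax2, to 1 group of paired box genes, which act in the isthmus. Pax8 is also known from the thyroid, the kidney and the ear, and Pax5 from B cells. Pax8 had the highest mean ratio of the factors tested. Its intensity was 1873.5, 1283 and 1751.5 in Cy5, against 795.5, 1002 and 527 in Cy3, and the channels did not overlap. The raw channels differ in overall brightness, however, and the normalized ratio was 0.50, 0.11 and 1.06 in pairs 1, 2 and 3. The mean was 0.55 ± 0.19 (SE, n = 3 pairs, higher in 3 of 3; unadjusted p = 0.032 and adjusted p = 0.252 in limma), a 1.47-fold difference. The 95% interval ran from 0.07 to 1.04 and was the only one of the 7 that did not include 0, with no allowance for the number of genes tested. Limma moderates its variance towards that of all genes, so it is narrower than the 3 ratios alone would give. Their SD was 0.48, at percentile 93.6 of all genes tested.

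The ratio of Pax8 in pair 3 stood at percentile 99.3 of all genes, that in pair 1 at 96.6 and that in pair 2 at 67.8. By channel, Pax8 in Cy5 was at log2 10.40, 10.20 and 10.56 in pairs 1, 2 and 3, against 9.91, 10.09 and 9.50 in Cy3. In pair 3 Pax8 thus had both the highest of its 6 values, in Cy5, and the lowest, in Cy3. Without pair 3 the mean of Pax8 was 0.30 (limma adjusted p = 0.401), and over all 10 alternatives it lay between 0.30 and 0.78 with adjusted p-values from 0.153 to 0.582. Its unadjusted p in limma rose above 0.05 with median centring (0.105), with processed signals (0.0522), without pair 1 (0.071) and without pair 3 (0.097). Under the other alternatives it stayed below 0.05. The authors' deposited table lists Pax8 at -0.65 and En2 at -0.38 on the log2 scale, with adjusted p-values of 0.503 and 0.628. That table does not state its direction and correlates at -0.802 with Cy5 over Cy3, so its sign is opposite to the one used here.

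The promoter of Pax8 is shown because its ratio was the largest among the factors. The 250 bases before its start, from RefSeq on the minus strand of GRCm38.p6 at chr2:24475600-24475849, hold 1 CCAAT box, 57 bases before the start and printed in capitals.
Pax8: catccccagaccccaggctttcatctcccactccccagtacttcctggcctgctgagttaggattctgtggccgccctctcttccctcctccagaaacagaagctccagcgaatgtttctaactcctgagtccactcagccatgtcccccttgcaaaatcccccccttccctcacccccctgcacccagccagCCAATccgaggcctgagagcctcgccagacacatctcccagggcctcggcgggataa
CCAAT, searched on both strands, occurs in 33.8% of 32851 such windows, and also in windows of En1 and Egr2. Neither the homeodomain core TAATTA nor the Otx core TAATCC, which occur in 4.84% and 6.25% of all windows, was found in a window of the 6 factors, of 8, that have one in the table used, which does not cover En2 and Otx1. These matches are descriptions of letters and not of binding.

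Pax5 was close to background. Its brighter probe gave 183, 203 and 189.5 in Cy5 and 109, 118.5 and 116.5 in Cy3, and was well above background in Cy3 on 2 of 3 arrays and in Cy5 on none. Its ratio was -0.21, -0.10 and -0.05, with a mean of -0.12 ± 0.08 (SE, n = 3; limma adjusted p = 0.478). The 95% interval ran from -0.33 to 0.09 and included 0, and no fold is given for Pax5. The dimmer probe gave 129, 139 and 100 in Cy5 and 69.5, 70 and 63 in Cy3 and was well above background on no array. Pax2, chosen after its values were seen, had 0.15, -0.09 and -0.15 (mean -0.03 ± 0.10, SE, limma adjusted p = 0.894). Of the 3 genes of this group, Pax8 alone had an unadjusted p below 0.05 in limma, which did not hold under every alternative. A difference between the genes was not tested.

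Egr2, a zinc finger factor needed for the odd-numbered rhombomeres it marks, had intensities of 1150, 1224 and 792.5 in Cy5, against 592.5, 808 and 585.5 in Cy3. The ratio was 0.23, 0.33 and -0.20 in pairs 1, 2 and 3. Its mean was 0.12 ± 0.13 (SE, n = 3; limma adjusted p = 0.648), with a 95% interval from -0.21 to 0.45. Pairs 1 and 2 were above 0 and pair 3 below it. Without pair 3 the mean was 0.28, and with median centring it was -0.01. Egr2 is also induced as an immediate early gene in many cell types. Its relative Egr1, chosen after its values were seen, had 0.96, -0.89 and -0.14 in the same pairs. Fos, also so chosen, had 0.15, -0.53 and 0.09. A link of these ratios to that of Egr2 was not tested.

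Egr2 has 5 starts in the RefSeq table, and 4 of their windows hold a CArG box, the core of the serum response elements found before many immediate early genes. The window of the first of these, on the plus strand of GRCm38.p6 at chr10:67537316-67537565, is shown with the box in capitals, 72 bases before the start.
Egr2: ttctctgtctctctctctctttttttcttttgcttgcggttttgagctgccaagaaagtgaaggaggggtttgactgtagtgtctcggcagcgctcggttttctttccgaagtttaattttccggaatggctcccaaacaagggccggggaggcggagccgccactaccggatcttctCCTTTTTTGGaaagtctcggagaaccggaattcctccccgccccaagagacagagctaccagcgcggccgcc
A CArG box, searched on both strands, occurs in 1.47% of the 32851 windows and in no window of the other factors that have one. The Egr core GTGGGCG, searched on both strands, occurs in 7.02% of windows and among the 6 factors with a window in Egr2 alone, at another of its starts.

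Irx3 had intensities of 10430, 9524 and 9713 in Cy5, against 5318, 8881 and 5112.5 in Cy3. The ratio was 0.13, -0.10 and 0.20, with a mean of 0.07 ± 0.10 (SE, n = 3; limma adjusted p = 0.706) and a 95% interval from -0.17 to 0.32. The SD over pairs of 0.16 stood at percentile 49.9 of all genes. Irx5, its neighbour in the same gene cluster and chosen after its values were seen, had 0.32, -0.24 and 0.31. Both genes were above 0 in pairs 1 and 3 and below it in pair 2, and a likeness over the pairs was not tested.

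**Figure D3:**
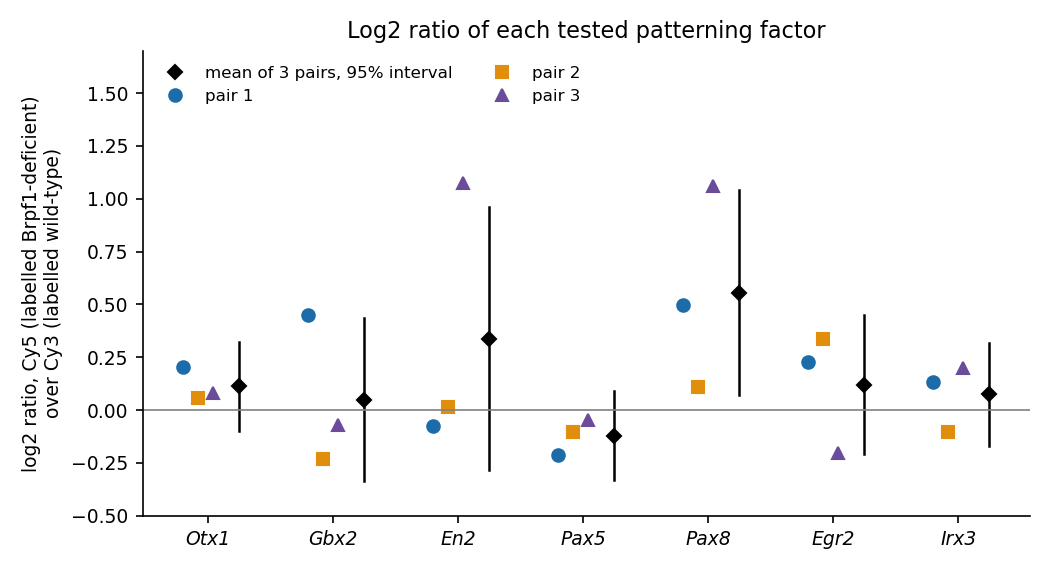
Log2 ratio of Cy5 (labelled Brpf1-deficient) over Cy3 (labelled wild-type) for the 7 tested factors, with 1 symbol per pair. The mean of 3 pairs is in black, with its 95% interval as moderated by limma. En2 and Pax8 have their highest value in pair 3, at 1.07 and 1.06, and the interval of Pax8, from 0.07 to 1.04, is the only one that does not include 0.

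Taken by pair, the median of the 7 ratios was 0.20, 0.01 and 0.08 in pairs 1, 2 and 3, against -0.02, -0.04 and -0.01 for all genes. In pair 2 the factors lay between -0.23 and 0.33. In pair 3 they lay between -0.20 and 1.07, with En2 and Pax8 alone above the highest value of pair 2. The 95% intervals of 6 factors, as moderated by limma, lay within 1 of 0 on the log2 scale, and that of Pax8 reached 1.04. A log2 ratio of 1 is a 2-fold difference. A missed threshold does not show that a factor was equal in both channels.

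Genes that work with these factors were read from lists chosen with earlier results of these data known. In the isthmic organizer list, which holds the signals, their feedback inhibitors and the partner factors, 19 of 20 genes were tested. None was higher or lower by limma's adjusted p, beside 1.38% of all genes. None passed an unadjusted p of 0.05 by its brightest probe, beside 17.3% of all genes, and the median ratio was -0.03. The 4 with the smallest p were Lmx1b, a LIM homeobox gene that maintains the organizer (0.16 ± 0.08, SE), Fgf8, its main signal (-0.19 ± 0.10), Tle4, a Groucho co-repressor (-0.18 ± 0.11), and Dusp6, a phosphatase induced by FGF signals (-0.18 ± 0.11). Their adjusted p-values lay between 0.353 and 0.446. Fgf8 had -0.02, -0.23 and -0.33 in pairs 1, 2 and 3, and the dimmer Fgf8 probes gave -0.15 and 0.08. A dimmer Tle4 probe gave -0.32 (limma unadjusted p = 0.023). Wnt1, chosen after its values were seen, had 0.20, -0.30 and 0.18. The organizer genes next to En2 thus had no ratio near that of En2 in pair 3, where the list lay between -0.42 and 0.58.

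In the hindbrain segmentation list all 21 genes were tested. None passed by limma's adjusted p, beside 1.38% of all genes. At an unadjusted p of 0.05, 5 of 21 passed (2 higher and 3 lower), beside 17.3% of all genes, and the median was 0.01. The lower 3 were Hox genes, which pattern the rhombomeres behind the most anterior. Hoxb2, a known target of Egr2, had -0.33, -0.36 and -0.47 (mean -0.39 ± 0.08, SE, limma adjusted p = 0.139). Hoxa3 had -0.44 ± 0.10 and Hoxb3 -0.32 ± 0.10, where a dimmer Hoxb3 probe gave 0.27. The higher 2 were Cyp26c1, an enzyme that breaks down retinoic acid, with 0.87, 0.66 and 0.03 (mean 0.52 ± 0.17, limma adjusted p = 0.249), and Hoxb1, a marker of a single rhombomere chosen after its values were seen, with 0.71, 0.66 and -0.04 (mean 0.45 ± 0.17, limma adjusted p = 0.284). Both were higher in pairs 1 and 2 than in pair 3, and a likeness to Egr2 over the pairs was not tested.

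**Figure D4:**
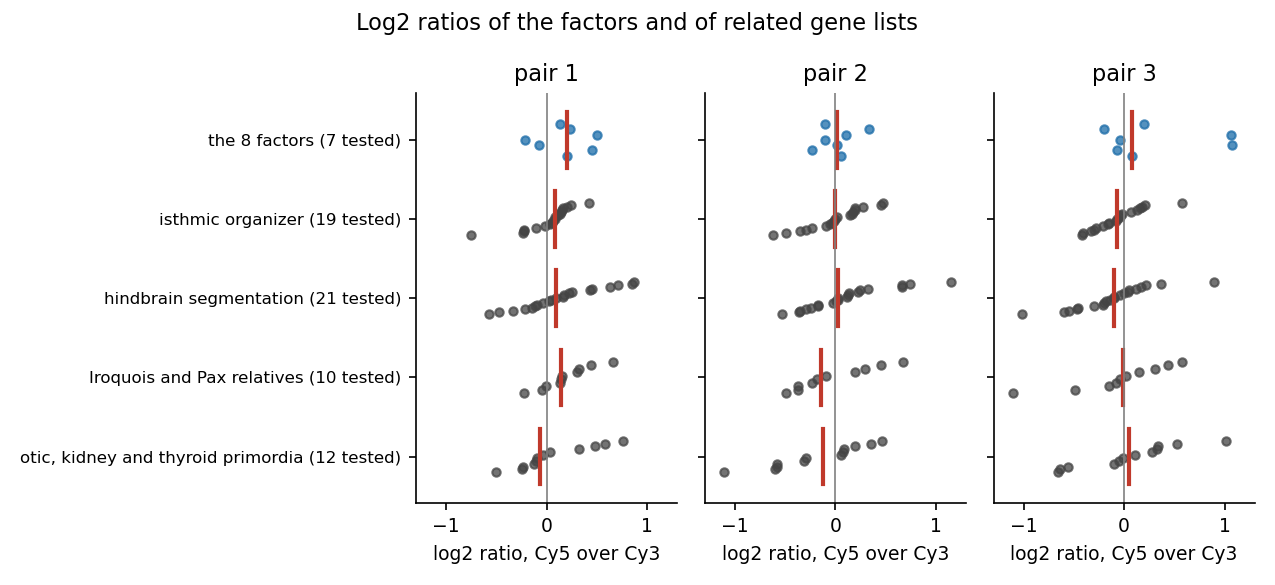
Log2 ratio of Cy5 (labelled Brpf1-deficient) over Cy3 (labelled wild-type) in pairs 1, 2 and 3 for the 7 tested factors (blue) and the tested genes of 4 related lists (grey), with 1 point per gene and the median as a red bar. In pair 3 the 2 blue points beyond 1 are En2 and Pax8, and the isthmic organizer genes lie between -0.42 and 0.58.

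Of the relatives of Irx3 and of the Pax factors, 10 of 12 genes were tested, and the median was 0.07. None passed an adjusted p of 0.05 in limma, beside 1.38% of all genes, or an unadjusted one, beside 17.3%. Irx1 had 0.33 ± 0.14 (SE), Irx4, a gene of the heart ventricle, 0.23 ± 0.15, Pax3, a factor of the dorsal neural tube and somites, 0.18 ± 0.12, and Pax9, a factor of the pharyngeal pouches and sclerotome, -0.39 ± 0.27. Their adjusted p-values lay between 0.317 and 0.478. The list of the primordia of ear, kidney and thyroid was read because Pax8 is active there. Of its 14 genes 12 were tested, and none passed by limma's adjusted p, beside 1.38% of all genes. At an unadjusted p of 0.05, 3 of 12 passed (2 higher and 1 lower), beside 17.3% of all genes, and the median was -0.02. The thyroid and lung factor Nkx2-1 was at -0.40 ± 0.11 (SE, limma adjusted p = 0.202), the kidney factor Lhx1 at 0.36 ± 0.12 (0.239), and Sox9 at -0.29 ± 0.12 (0.321). In pairs 1, 2 and 3 Lhx1 had 0.48, 0.08 and 0.53, Sox9 -0.23, -0.58 and -0.05, and Nkx2-1 -0.25, -0.29 and -0.64. A likeness to Pax8 over the pairs was not tested.

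Markers of other tissues also differed between the pairs. In the trophoblast and decidua list the median of 4 tested genes was -0.72, -0.26 and 0.87 in pairs 1, 2 and 3. Its summed level, after Aquantile normalization, was 35118, 29981 and 45655 in Cy5 in pairs 1, 2 and 3, against 57246, 55739 and 45015 in Cy3. Prl3d1, a hormone of trophoblast giant cells, had -1.19, -1.001 and 2.35, and Prl8a2, a hormone of the decidua, -0.74, -3.55 and 0.60. The other genes of that list differed from these. Igfbp1, a secreted protein of the decidua, was above 0 in all pairs with 0.57, 0.80 and 1.15 (limma unadjusted p = 0.0012, adjusted p = 0.070), and Gcm1, a factor of the placental labyrinth, was lowest in pair 3 with -0.70, 0.48 and -0.78. Wt1, a gene of kidney and decidua, had -0.51, -1.11 and 1.01. It belongs to the ear, kidney and thyroid list, whose medians were -0.06, -0.12 and 0.05 in pairs 1, 2 and 3. Prl3d1, Prl8a2, Wt1, Igfbp1 and Gcm1 were named after their values were seen. The neural crest list had medians of -0.15, -0.09 and 0.43. Its summed level was 25897, 29206 and 36458 in Cy5 in pairs 1, 2 and 3, against 28845, 33097 and 28167 in Cy3. In the yolk sac list 5 of 7 genes were higher at an unadjusted p below 0.05, beside 8.23% of all genes. None was higher by limma's adjusted p, beside 1.29% of all genes. The 7 genes were bright, with mean log2 intensities from 14.55 to 17.04, and their ratios under the alternatives, such as another loess span, were not analysed. The list had medians of 0.20, 0.54 and 0.55. The summed level of the yolk sac list was 735346, 595177 and 852130 in Cy5 in pairs 1, 2 and 3, against 636952, 390984 and 465029 in Cy3. The neural plate list, by contrast, had its lowest median in pair 3, with -0.09, 0.11 and -0.21. Medians were 0.04, -0.20 and -0.04 in the forebrain list, -0.24, -0.29 and 0.29 in the endothelial list, and -0.10, 0.64 and 0.39 in the primitive erythroid list, where 1 of 4 genes passed the threshold, beside 1.38% of all genes. This was Hbb-bh1, an embryonic globin named after its values were seen, with 0.83, 1.58 and 1.42 (mean 1.28 ± 0.16, SE, n = 3, limma adjusted p = 0.042). Hbb-bh1 fell short of the threshold under 6 of 10 alternatives. It was at 0.23 with a loess span of 0.02 (limma adjusted p = 0.779) and at 0.47 with processed signals (limma adjusted p = 0.46). The part of these tissues in the pair 3 ratios of En2 and Pax8 was not tested.

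**Figure D5:**
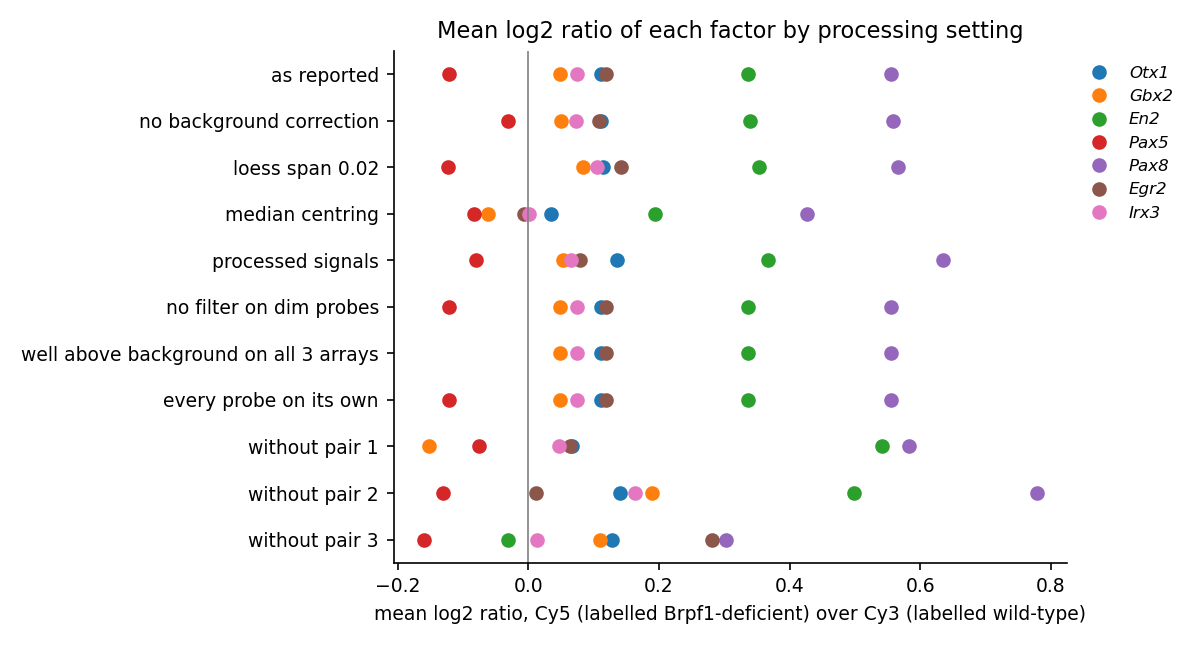
Mean log2 ratio of Cy5 (labelled Brpf1-deficient) over Cy3 (labelled wild-type) of each tested factor, 1 colour per factor, as reported and under each of 10 alternatives, down the page. Pax8 lies between 0.30 and 0.78 throughout, and En2 lies at -0.03 without pair 3 and above 0 under the other alternatives.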

How the data were processed

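From 350 ng of total RNA, dye-coupled amplified RNA was made in a single round, per the labels' protocols. The arrays share 1 slide and scan and were read with Feature Extraction 10.7.3.1, per the file headers, so no batch could be tested. Used here were the deposited intensity medians of each spot and its local background, unlogged. Processed intensities and log10 ratios of the scanner software, as the deposited array files hold them, stand beside these. The authors' deposited table lists log2 ratios, p-values and scores in 40000 rows. Limma is named in the submitters' processing notes, without settings.

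Normexp with an offset of 50 corrected these medians for background. Loess with a span of 0.3 then normalized each array's log2 ratio, Cy5 over Cy3, giving no weight to control spots or outliers. Spots of a probe were averaged without outliers. A probe was kept if at least 0.5 of its spots were well above background in 1 channel on at least 2 arrays, and the brightest probe stood for its gene (31603 of 55681 probes, 23555 genes). Names came from RefSeq accessions in the GRCm38.p6 table, which matched 27656 of 29123 such probes. Limma 3.58.1 in R 4.3.3 (lmFit and eBayes, intercept only, two-sided, Benjamini-Hochberg) tested the mean of 3 pairs against 0, and was tested on simulated data. P-values, SEs of means and intervals rest on the spread between these pairs, moderated by limma towards that of all genes tested. For genes with a wide spread, such as En2 and Pax8, SEs and intervals are narrower than their 3 ratios alone would give. The number of pairs limits the precision.

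The factors and lists were chosen with earlier results of these data known. Named were all factors, Brpf1, and from each related list any gene past the threshold or the 4 smallest p-values. Marker lists had no such rule. Genes outside this are marked as chosen after their values were seen, and a gene that the rule names is not reported here. Alternatives were the background correction, loess span, median centring, processed signals, 2 filters, single probes and the omission of each pair.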

Additional observations from a re-analysis of the deposited data

How the results depend on the processing

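Under all 10 alternatives run, 0 of the factors and 0 genes of the 4 related lists passed the threshold, with adjusted p-values of the factors from 0.153 to 0.999. The count over all genes, 326 as reported, was 651 with median centring, 0 with a loess span of 0.02 (3508 at an unadjusted p below 0.05 in limma), 0 with processed signals (3454) and 0 to 0 without 1 pair (2145 to 3831), so a background percentage holds for its own setting. Brpf1 lost its call with a span of 0.02 (1.52, adjusted p = 0.273), with processed signals (1.56, 0.236), with single probes (adjusted p = 0.0596) and without any 1 pair (1.25 to 1.72). Hbb-bh1 lost its call under the same alternatives (1.12 to 1.501 when 1 pair was left out). Of 347 values of 35 genes under the alternatives, 315 kept their sign and side of the threshold and 20, of 10 genes, changed sign. None of those that changed sign was past the threshold as reported. With median centring, Gbx2 was at -0.061, Egr2 at -0.0063, Wnt1 at -0.11, Prl3d1 at -0.058 and Pax2 at 0.00018. Without background correction, Pax2 was at 0.024 and Egr1 at 0.051, and with processed signals Egr1 was at 0.035. When 1 pair was left out, En2 ranged from -0.031 to 0.54, Gbx2 from -0.15 to 0.19, Otx2 from -0.026 to 0.14, Wnt1 from -0.059 to 0.19, Pax2 from -0.12 to 0.031, Egr1 from -0.52 to 0.41, Fos from -0.22 to 0.12, Wt1 from -0.81 to 0.25 and Prl3d1 from -1.10 to 0.68. The cause was not tested. The test is one of pairs, on the ratio within each array, and holds no further block. Signal over background limits En1 and Pax5, which were not well above background in Cy5 over their spots on any array. Pax5 has no value under the stricter filter.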
